A study of Mus musculus with 8 samples.

Results

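The 48 genes described here encode the machinery that copies DNA and divides the cell, and were followed in mouse dorsal skin on 8 expression arrays. They comprised 18 genes of S phase, 25 genes of mitosis and 5 genes that act in both phases. Members were chosen by gene symbol, and each is given by the brightest of its probe sets, judged by the mean over all 8 arrays. A probe set paired with a single symbol was listed for 47 of the 48 members, and Ccnb1 was not analysed here. Signals of 45 members lay above the array median on at least 2 of the 8 arrays and were tested, among 12412 tested genes of 18193 with a probe set. The members Cdc6 and Tyms did not pass that filter and are given as values.

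All mice were Balb/c, and the tissue was frozen whole skin, so every signal is an average over epidermis, hair follicles, dermis and infiltrating cells. The sham group (n = 2 arrays) received neither DNCB nor HY209. In the DNCB group (n = 3), 2,4-dinitrochlorobenzene, a contact sensitizer used to model atopic dermatitis, was put on the back skin over 15 days, with a vehicle during the final 7 days. In the DNCB+HY209 group (n = 3), the same 15 days of DNCB were combined with a gel of 5% HY209 in PEG during the final 7 days; HY209 is known here only by its code name. Groups were read from the titles and source names, because the protocol fields carry identical text for all 3 groups, DNCB and vehicle included. The labels do not say whether separate animals stand behind the arrays of a group, nor give their age or sex, and p-values therefore measure only the spread between these samples, which may be technical.

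Dividing cells express these genes in waves. E2F transcription factors switch on the replication genes at entry into S phase. Complexes of B-Myb and FoxM1 raise the mitotic genes later in the cycle, at promoters with CHR and CCAAT elements. In skin the dividing cells are mainly basal keratinocytes and the matrix cells of growing hair follicles, and in whole tissue fewer cells of a type and less RNA per cell cannot be told apart.

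Promoter sequence was set beside these 2 classes to show the elements named above. RefSeq promoter windows (GRCm38.p6) of the 250 bases before the annotated start were matched to 39 of the 48 members, with 43 windows in all because 4 members had 2. The CCAAT box, CCAAT on either strand, was present in 12 of 16 S phase windows and 21 of 24 mitosis windows, against 33.8% of all 32851 windows. An E2F site, searched on either strand as TTCCCGC, as the variant TTCGCGC, as the variant TTGCCGC or as the variant TTGGCGC, was present in 9 of 16 S phase windows and 3 of 24 mitosis windows, against 7.89% of all windows. A CHR, searched as TTTGAA or TTTAAA on either strand, was present in 5 of 16 and 13 of 24 windows, against 25.2%. CCAAT box and CHR occurred together in 3 of 16 S phase windows and 12 of 24 mitosis windows, against 8.78% of all windows. These are matches of letters, and no binding was measured.

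The 150 bases before the start are shown for 8 tested members with a single window, the 3 with the largest and the 1 with the smallest log2 difference between DNCB+HY209 and sham in each class, so that the elements can be seen beside the genes at both ends. Sequences run 5′ to 3′ on the gene's strand in GRCm38.p6, and capitals mark the CCAAT box (CCAAT or ATTGG), the E2F sites and the CHR. The first 4 are S phase genes and the last 4 mitosis genes.
Rrm2 (chr12:24708104-24708253, plus strand): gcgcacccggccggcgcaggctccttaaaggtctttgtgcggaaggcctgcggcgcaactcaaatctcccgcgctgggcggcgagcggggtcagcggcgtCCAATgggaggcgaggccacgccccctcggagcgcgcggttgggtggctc
Mcm5 (chr8:75109359-75109508, plus strand): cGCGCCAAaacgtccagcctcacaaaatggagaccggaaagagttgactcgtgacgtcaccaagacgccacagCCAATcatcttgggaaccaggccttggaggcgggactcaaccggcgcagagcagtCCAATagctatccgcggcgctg
Mcm6 (chr1:128359706-128359855, minus strand): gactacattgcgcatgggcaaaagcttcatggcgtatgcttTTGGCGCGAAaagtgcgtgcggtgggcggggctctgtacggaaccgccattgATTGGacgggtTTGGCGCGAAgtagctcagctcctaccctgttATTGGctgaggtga
Ccne1 (chr7:38107491-38107640, minus strand): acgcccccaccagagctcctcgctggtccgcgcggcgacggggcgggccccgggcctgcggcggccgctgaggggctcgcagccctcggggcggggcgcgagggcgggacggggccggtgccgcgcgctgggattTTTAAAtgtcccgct
Ccnb2 (chr9:70421555-70421704, minus strand): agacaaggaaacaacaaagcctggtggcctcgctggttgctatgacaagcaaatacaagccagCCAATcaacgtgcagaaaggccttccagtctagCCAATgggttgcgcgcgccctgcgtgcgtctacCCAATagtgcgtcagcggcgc
Birc5 (chr11:117849087-117849236, plus strand): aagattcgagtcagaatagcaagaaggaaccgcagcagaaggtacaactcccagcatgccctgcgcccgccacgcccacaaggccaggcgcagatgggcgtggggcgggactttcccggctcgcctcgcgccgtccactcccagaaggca
Cenpa (chr5:30666736-30666885, plus strand): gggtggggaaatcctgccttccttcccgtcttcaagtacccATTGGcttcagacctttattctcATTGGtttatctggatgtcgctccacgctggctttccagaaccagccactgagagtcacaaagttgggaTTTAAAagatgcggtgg
Kif23 (chr9:61946800-61946949, minus strand): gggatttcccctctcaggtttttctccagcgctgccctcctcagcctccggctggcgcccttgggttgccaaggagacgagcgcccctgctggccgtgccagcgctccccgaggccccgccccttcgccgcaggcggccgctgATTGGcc
The CCAAT boxes of Ccnb2 began 87, 54 and 21 bases before the start. Mcm6 held E2F matches that began 109, 106, 46 and 43 bases before the start, and the matches at 109 and 106 overlapped on opposite strands, as did those at 46 and 43. Cenpa carried CCAAT boxes at 109 and 86 bases and TTTAAA at 17 bases before the start. The shown stretch of Birc5 held none of the searched letters, which says nothing of what binds there.

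Array medians lay between 4.07 and 4.22 on the log2 scale, and the deposited values carried no read depth. The bacterial spike-in probe sets, added control RNAs, had mean log2 signals of 10.99 and 11.62 on the sham arrays, 10.71, 9.25 and 10.83 on the DNCB arrays and 10.89, 9.97 and 9.87 on the DNCB+HY209 arrays. The Gapdh 3′ to 5′ signal ratio, a measure of RNA and labelling quality, ran from 2.10 to 7.35. Basal keratinocyte markers, defining for skin, had a mean log2 signal between 8.61 and 10.01 on all 8 arrays. Activated keratinocyte markers such as Krt6b and Krt16 had list means of 5.65 and 6.22 in sham against 10.08 to 12.37 on the 6 DNCB-exposed arrays, and 7 of 8 rose in DNCB against sham by limma. The sham labels and the DNCB labels were therefore separated by genes outside the cell cycle.

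The sham arrays stood apart from each other in the cell cycle genes. Sham 2 had the lowest signal of all 8 arrays in 37 of 45 tested members, against 34.4% of all genes tested. Sham 1 exceeded sham 2 in 43 of 45 members, against 58.1% of all genes tested, and by at least 0.5 log2 units in 36 of 45, against 22.1%. The median gap over the measured members was 0.89. Sham 1 lay within the range of the DNCB arrays in 29 of 45 members, against 45.5% of all genes tested, above all 3 in 10, against 22.3%, and below all 3 in 6, against 32.1%. DNCB 1 was the lowest of the 6 DNCB-exposed arrays in 39 of 45 members, against 26.9% of all genes tested, and a DNCB+HY209 array was the highest of 8 in 28 of 45, against 33.1%. Every difference from sham below rests on these unlike control arrays.

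**Figure D1:**
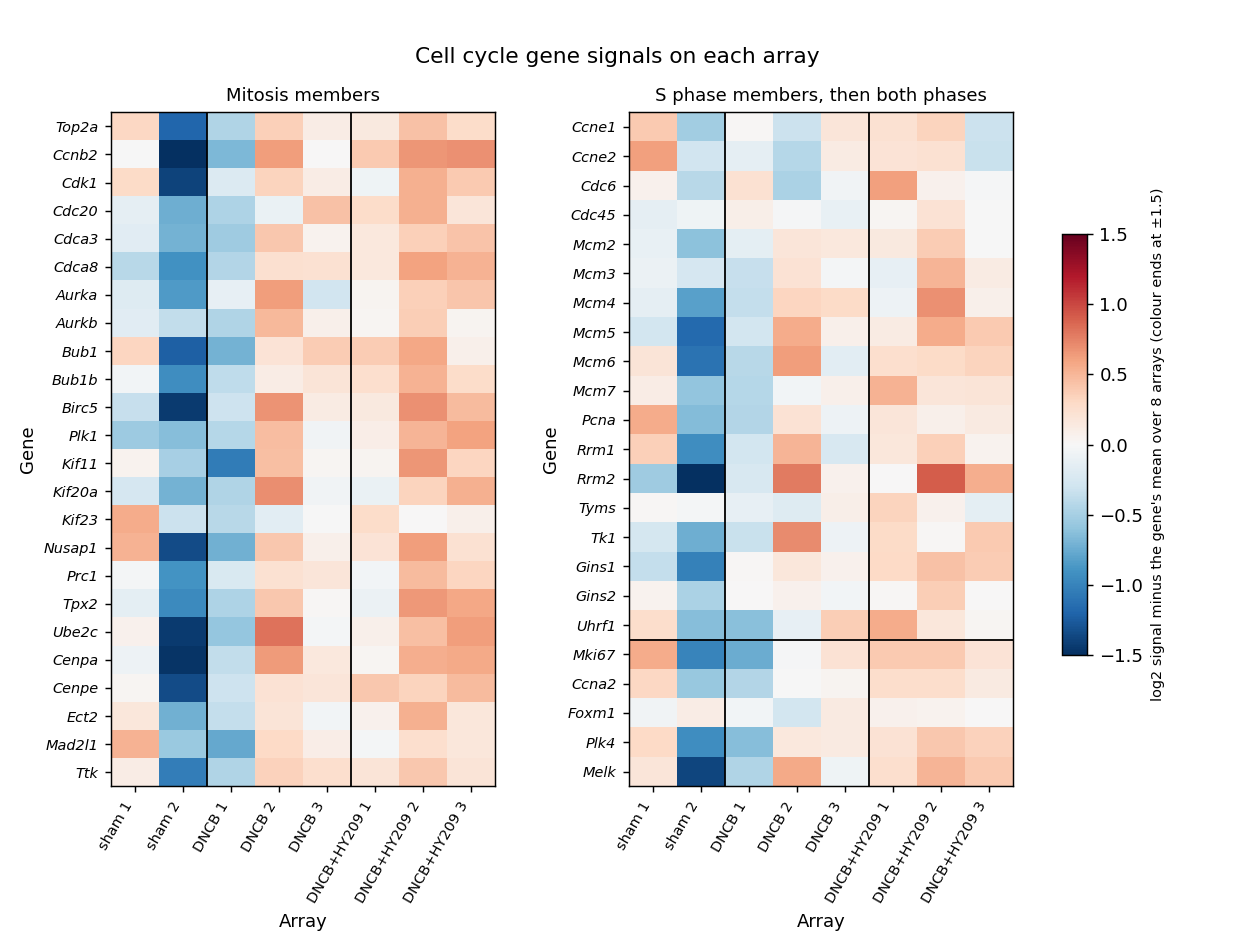
Heat map of the 47 measured members (vertical axis) on each of the 8 arrays (horizontal axis), coloured by the log2 signal minus the gene's mean over the 8 arrays. Sham 2 is the lowest array in 37 members, and its column is the darkest blue, whereas sham 1 is the lowest in 1.

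Across all members, no gene passed the test in any comparison. In DNCB against sham, 0 of 45 members passed an adjusted p of 0.05 by limma with Benjamini-Hochberg adjustment across the 12412 genes, where 1.8% of all genes tested passed. At an unadjusted p under 0.05, 5 members were higher, Gins1, Rrm2, Mcm5, Birc5 and Cdca8, against 12.4% of all genes tested. The group mean was higher in 39 of 45 members, against 63.2%, with a median log2 difference over the 47 measured members of 0.41 against 0.15 over all genes tested. All 3 DNCB arrays lay above both sham arrays in 5 of 45 members, against 23.3% of all genes tested. The median rested on single arrays. Without sham 2 it was -0.01, with 22 of 47 members higher, and without sham 1 it was 0.81. Without DNCB 1 it was 0.65, and without DNCB 2 it was 0.27. The count at an unadjusted p under 0.05 was 11 without DNCB 1, 2 without DNCB 2 and 3 without DNCB 3. The share of all genes tested was not counted in these fits.

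In DNCB+HY209 against DNCB, 0 of 45 members and 0% of all genes tested passed the same test. By limma, 0 members had an unadjusted p under 0.05, against 0.25% of all genes tested that had one and were higher. With arrays weighted by their quality, in a fit that did not reach its convergence tolerance, the count was 25. Without DNCB 2 it was 2, and 0 members passed after adjustment in either fit. The share of all genes tested at an unadjusted p under 0.05 was not counted in these fits. The mean was higher with HY209 in all 47 measured members, 45 of 45 tested against 57% of all genes tested. The differences were small, from 0.10 to 0.59, with a median of 0.28 against 0.03 over all genes tested. All 3 DNCB+HY209 arrays lay above all 3 DNCB arrays in 7 of 45 members, Mcm7, Gins1, Bub1b, Kif23, Cenpe, Ccna2 and Plk4, against 2.83% of all genes tested. This holds for the brightest probe sets, and other probe sets of Bub1b went as low as -0.23. Without DNCB 1, the median was 0.11 and 39 of 47 members were higher, and without DNCB 2 the median was 0.45.

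In DNCB+HY209 against sham, 0 of 45 members passed, where 0.403% of all genes tested passed. By limma, 16 members had an unadjusted p under 0.05, all higher, against 14.2% of all genes tested that had one and were higher. The mean was higher in 43 of 45 members, against 65.7%, with a median difference of 0.72 against 0.20 over all genes tested. All 3 DNCB+HY209 arrays lay above both sham arrays in 25 of 45 members, against 29.1% of all genes tested. Without sham 2 the median was 0.21, with 35 of 47 members higher, and without sham 1 it was 1.07. The count at an unadjusted p under 0.05 was 8 without DNCB+HY209 2 and 10 without DNCB+HY209 3. The share of all genes tested was not counted in these fits. When arrays were weighted by their quality in limma, 6 of 45 members passed in this comparison, with adjusted p from 0.0212 to 0.0427. They were Mcm5, Rrm2, Gins1, Cdca8, Birc5 and Plk1. That fit did not reach its convergence tolerance, and 742 of 12412 genes tested passed in it. The 3 comparisons share arrays, so their differences for a gene are given side by side and are not independent.

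**Figure D2:**
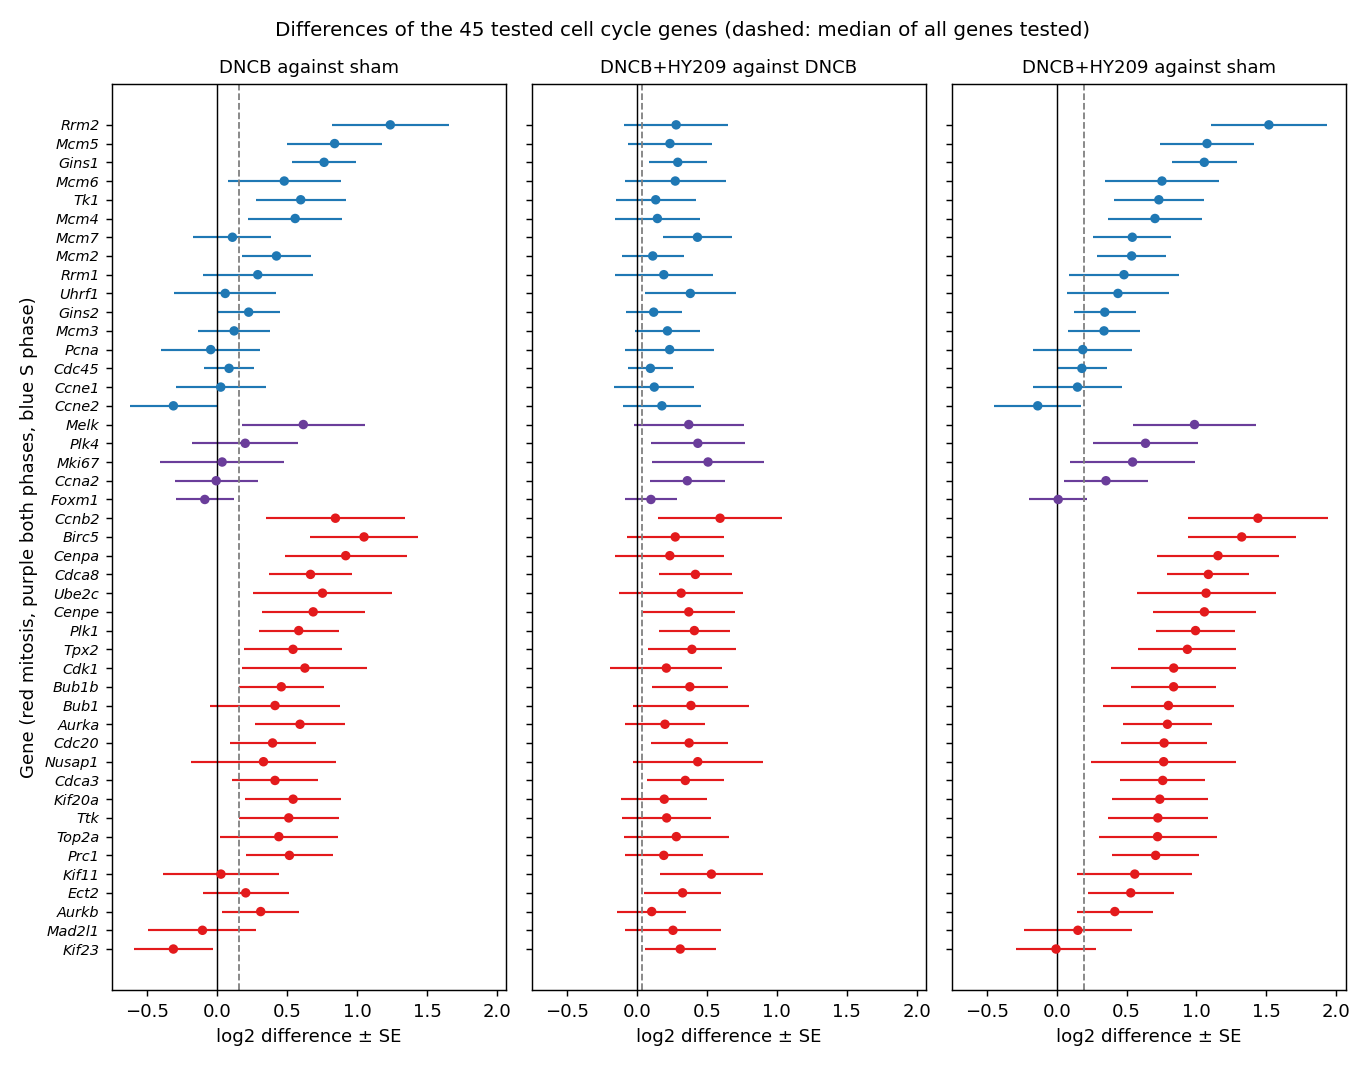
Log2 difference with its standard error (horizontal axis) for the 45 tested members (vertical axis) in the 3 comparisons, coloured by class, with a dashed line at the median of all genes tested. In the middle panel every point lies above 0, from 0.10 to 0.59, and no gene passed the test in any panel.

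Among the S phase genes, the cyclins that drive entry into replication overlapped between the groups. Differences here and below are on the log2 scale, the value after ± is the standard error (SE), and the adjusted p is limma's. Ccne1, an activator of Cdk2 at the start of S phase, gave log2 signals of 6.13 and 5.22 on the sham arrays, 5.75, 5.42 and 5.92 on the DNCB arrays, and 5.97, 6.07 and 5.42 on the DNCB+HY209 arrays. Its paralog Ccne2 gave 4.51 and 3.61 on the sham arrays, 3.76, 3.47 and 4.01 on the DNCB arrays, and 4.10, 4.12 and 3.56 on the DNCB+HY209 arrays. In both, sham 1 was the highest array and the groups overlapped. Ccne1 was higher in DNCB than sham by 0.02 ± 0.32 (adjusted p = 0.972) in limma's test, and Ccne2 differed by -0.31 ± 0.31 (adjusted p = 0.592), the lowest S phase value by moderated t. With HY209 the limma differences from DNCB were 0.12 ± 0.29 (adjusted p = 0.9998) for Ccne1 and 0.18 ± 0.28 (adjusted p = 0.9998) for Ccne2. Against sham, DNCB+HY209 differed by 0.15 ± 0.32 (adjusted p = 0.798) for Ccne1 and -0.14 ± 0.31 (adjusted p = 0.809) for Ccne2.

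Helicase loading and activation came next. Gins1, a subunit of the GINS complex that activates the replicative helicase, gave 5.82 and 5.16 on the sham arrays, 6.19, 6.34 and 6.24 on the DNCB arrays, and 6.47, 6.61 and 6.56 on the DNCB+HY209 arrays. The 3 groups did not overlap in this probe set of Gins1, with sham lowest and DNCB+HY209 highest. In limma's test DNCB exceeded sham by 0.76 ± 0.23 (adjusted p = 0.161) and DNCB+HY209 exceeded DNCB by 0.29 ± 0.21 (adjusted p = 0.9998). DNCB+HY209 exceeded sham by 1.06 ± 0.23 (adjusted p = 0.0981), the lowest adjusted p of any member in the 3 comparisons. The other probe set of Gins1 differed by -0.12 for DNCB against sham, on the other side of 0. It differed by 0.48 for DNCB+HY209 against DNCB and by 0.35 for DNCB+HY209 against sham. Cdc6, which loads the helicase at origins, was below the filter, with signals of 3.33 and 2.84 on the sham arrays, 3.49, 2.78 and 3.21 on the DNCB arrays, and 3.87, 3.32 and 3.24 on the DNCB+HY209 arrays, overlapping between groups. Cdc45 and Gins2, which complete the active helicase, had DNCB against sham differences of 0.08 and 0.22.

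The helicase itself is built of Mcm2 to Mcm7. In their brightest probe sets all 6 subunits had higher means in DNCB than in sham, with a median difference of 0.45 and a range of 0.11 to 0.84. Other probe sets of Mcm3, Mcm5 and Mcm6 went as low as -0.27, -0.10 and -0.06 in that comparison. Mcm5 gave signals of 7.34 and 6.45 on the sham arrays, 7.34, 8.17 and 7.69 on the DNCB arrays, and 7.73, 8.17 and 8.01 on the DNCB+HY209 arrays. DNCB 1 equalled sham 1 to within rounding, and sham 2 was far below the rest. The limma differences of Mcm5 were 0.84 ± 0.34 (adjusted p = 0.271) for DNCB against sham, 0.24 ± 0.30 (adjusted p = 0.9998) for DNCB+HY209 against DNCB and 1.08 ± 0.34 (adjusted p = 0.183) for DNCB+HY209 against sham. Mcm2 gave 7.81 and 7.31 on the sham arrays, 7.78, 8.10 and 8.08 on the DNCB arrays, and 8.07, 8.30 and 7.92 on the DNCB+HY209 arrays, and sham 1 lay just above DNCB 1. Its differences by limma were 0.42 ± 0.25 (adjusted p = 0.398), 0.11 ± 0.22 (adjusted p = 0.9998) and 0.54 ± 0.25 (adjusted p = 0.274) in the same order. Mcm6 gave 6.40 and 5.10 on the sham arrays, 5.80, 6.84 and 6.05 on the DNCB arrays, and 6.46, 6.50 and 6.54 on the DNCB+HY209 arrays, so that sham 1 exceeded a pair of the DNCB arrays. Its limma differences were 0.48 ± 0.40 (adjusted p = 0.535), 0.27 ± 0.36 (adjusted p = 0.9998) and 0.75 ± 0.40 (adjusted p = 0.321) in that order. Mcm7 had the largest moderated t of the S phase genes for HY209 against DNCB, with signals of 9.36 and 8.66 on the sham arrays, 8.82, 9.21 and 9.33 on the DNCB arrays, and 9.77, 9.43 and 9.44 on the DNCB+HY209 arrays. All 3 DNCB+HY209 arrays of Mcm7 lay above the DNCB arrays, by 0.43 ± 0.25 (adjusted p = 0.9998) in limma's test, but sham 1 also exceeded every DNCB array. Mcm7 differed by 0.11 ± 0.28 (adjusted p = 0.845) between DNCB and sham and by 0.54 ± 0.28 (adjusted p = 0.309) between DNCB+HY209 and sham, again by limma. Mcm3 and Mcm4 lay between these subunits, at 0.12 and 0.56 for DNCB against sham.

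Pcna, the sliding clamp that holds polymerases on DNA, overlapped between all groups. It gave 9.17 and 7.96 on the sham arrays, 8.18, 8.83 and 8.54 on the DNCB arrays, and 8.80, 8.69 and 8.75 on the DNCB+HY209 arrays, with sham 1 the highest and sham 2 the lowest of all arrays. Limma put its differences at -0.05 ± 0.35 (adjusted p = 0.951) for DNCB against sham, 0.23 ± 0.32 (adjusted p = 0.9998) for DNCB+HY209 against DNCB and 0.19 ± 0.35 (adjusted p = 0.766) for DNCB+HY209 against sham. Uhrf1, which guides maintenance methylation to newly copied DNA, gave 7.89 and 6.99 on the sham arrays, 7.00, 7.50 and 7.99 on the DNCB arrays, and 8.18, 7.79 and 7.66 on the DNCB+HY209 arrays. Sham 2 and DNCB 1 were low in Uhrf1 and DNCB+HY209 1 was high. It differed by 0.06 ± 0.37 (adjusted p = 0.942), 0.38 ± 0.33 (adjusted p = 0.9998) and 0.44 ± 0.37 (adjusted p = 0.491) by limma in the same order.

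Among the enzymes of nucleotide supply, Rrm2, the regulated subunit of ribonucleotide reductase, had the largest difference from sham of any member. Its signals were 7.95 and 6.95 on the sham arrays, 8.25, 9.27 and 8.55 on the DNCB arrays, and 8.49, 9.39 and 9.03 on the DNCB+HY209 arrays. Both sham arrays lay below all 6 DNCB-exposed arrays. By limma the difference was 1.24 ± 0.42 (adjusted p = 0.201) for DNCB against sham and 1.52 ± 0.42 (adjusted p = 0.147) for DNCB+HY209 against sham, and neither passed. Between DNCB+HY209 and DNCB it was 0.28 ± 0.37 (adjusted p = 0.9998), with overlapping arrays. Tk1, the thymidine kinase of the salvage route, gave 6.0 and 5.53 on the sham arrays, 5.93, 6.97 and 6.19 on the DNCB arrays, and 6.55, 6.28 and 6.66 on the DNCB+HY209 arrays. DNCB 2 was high in Tk1 and sham 2 low. Limma gave Tk1 differences of 0.60 ± 0.32 (adjusted p = 0.364), 0.13 ± 0.29 (adjusted p = 0.9998) and 0.73 ± 0.32 (adjusted p = 0.257) for DNCB against sham, DNCB+HY209 against DNCB and DNCB+HY209 against sham. Tyms, which makes thymidylate, was below the filter at 3.53 and 3.48 on the sham arrays, 3.39, 3.32 and 3.60 on the DNCB arrays, and 3.85, 3.58 and 3.37 on the DNCB+HY209 arrays, below the array median on every array. Rrm1, the large reductase subunit, differed by 0.29 between DNCB and sham.

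**Figure D3:**
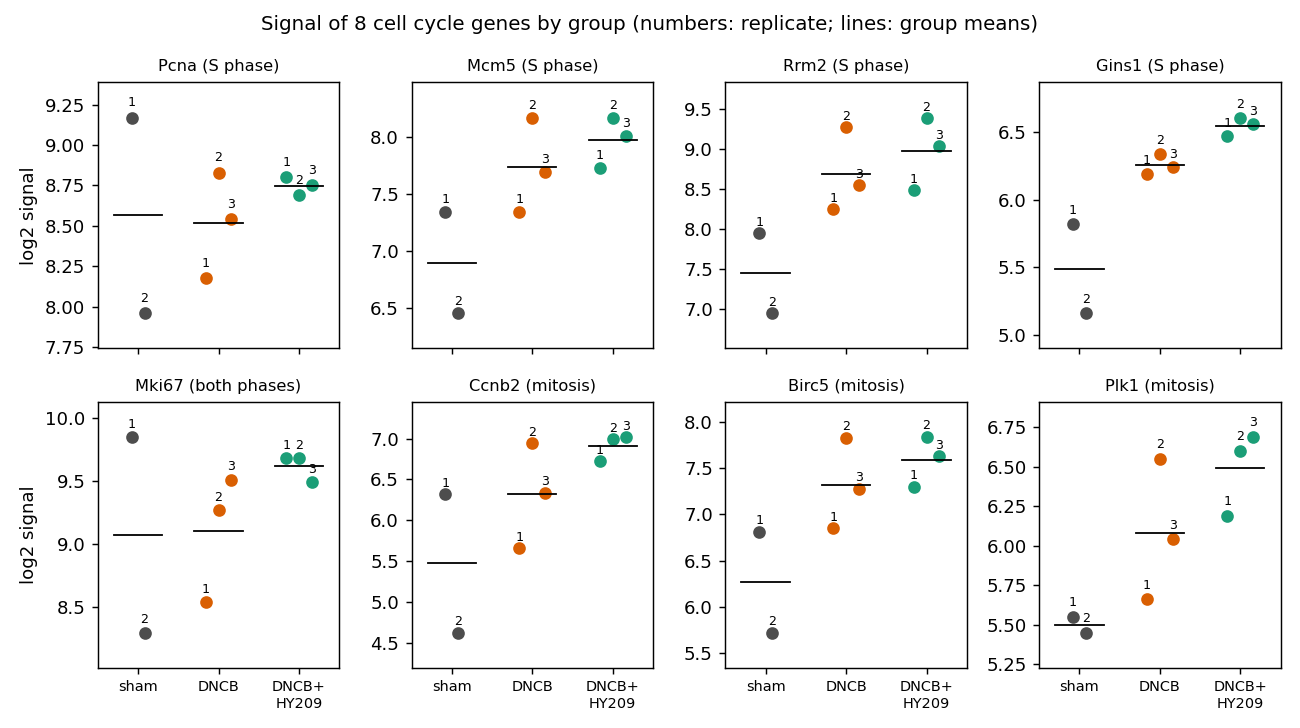
Log2 signal (vertical axis) of 8 members on each array by group (horizontal axis), with replicate numbers beside the points and a line at each group mean. In the brighter of the 2 probe sets of Gins1 the 3 groups do not overlap, whereas in Pcna and Mki67 the sham arrays span the range of all the others.

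The genes expressed in both phases, apart from Foxm1, showed the same divided controls. Mki67, the proliferation marker Ki-67, gave 9.85 and 8.30 on the sham arrays, 8.54, 9.27 and 9.51 on the DNCB arrays, and 9.68, 9.68 and 9.49 on the DNCB+HY209 arrays. Sham 1 was the highest array of all and sham 2 the lowest, so the sham values spanned every DNCB-exposed array. The differences by limma were 0.03 ± 0.44 (adjusted p = 0.972) for DNCB against sham, 0.51 ± 0.40 (adjusted p = 0.9998) for DNCB+HY209 against DNCB and 0.54 ± 0.44 (adjusted p = 0.484) for DNCB+HY209 against sham. Ccna2, cyclin A2, which serves both replication and mitotic entry, gave 7.83 and 6.94 on the sham arrays, 7.07, 7.51 and 7.55 on the DNCB arrays, and 7.78, 7.78 and 7.65 on the DNCB+HY209 arrays. Its DNCB+HY209 arrays all exceeded its DNCB arrays, by 0.36 ± 0.27 (adjusted p = 0.9998) in limma's test, but sham 1 was higher than all of them. Against sham, Ccna2 differed by -0.01 ± 0.30 (adjusted p = 0.99) in DNCB and 0.35 ± 0.30 (adjusted p = 0.495) in DNCB+HY209 by limma.

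Plk4, the kinase that starts centriole duplication, gave 6.89 and 5.66 on the sham arrays, 5.95, 6.75 and 6.72 on the DNCB arrays, and 6.81, 6.99 and 6.93 on the DNCB+HY209 arrays. Its DNCB+HY209 arrays lay above its DNCB arrays with a limma difference of 0.44 ± 0.34 (adjusted p = 0.9998), and its other differences were 0.20 ± 0.38 (adjusted p = 0.788) for DNCB against sham and 0.64 ± 0.38 (adjusted p = 0.358) for DNCB+HY209 against sham. Melk, a kinase expressed late in the cycle, gave 5.57 and 4.01 on the sham arrays, 4.94, 5.96 and 5.33 on the DNCB arrays, and 5.64, 5.90 and 5.79 on the DNCB+HY209 arrays, with sham 2 more than 0.5 log2 units below every other array. Melk differed by 0.62 ± 0.44 (adjusted p = 0.467), 0.37 ± 0.39 (adjusted p = 0.9998) and 0.99 ± 0.44 (adjusted p = 0.261) in limma's test, in the order DNCB against sham, DNCB+HY209 against DNCB and DNCB+HY209 against sham. Foxm1, the transcription factor of the mitotic wave, was nearly level at 6.58 and 6.74 on the sham arrays, 6.59, 6.36 and 6.77 on the DNCB arrays, and 6.69, 6.68 and 6.64 on the DNCB+HY209 arrays. No array stood out in Foxm1, whose limma differences were -0.09 ± 0.21 (adjusted p = 0.827), 0.10 ± 0.19 (adjusted p = 0.9998) and 0.01 ± 0.21 (adjusted p = 0.98) in that order.

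The mitosis genes had the larger median difference from sham, without a test of the classes. The median log2 difference for DNCB against sham was 0.51 over the 24 measured mitosis genes and 0.17 over the 18 S phase genes, a difference of -0.34 for S phase minus mitosis. For DNCB+HY209 against DNCB these medians were 0.32 and 0.20, with S phase minus mitosis at -0.12. Between DNCB+HY209 and sham they were 0.78 and 0.46, with S phase minus mitosis at -0.32. On single arrays, the median deviation of S phase genes minus that of mitosis genes was 0.06 and 0.30 on sham 1 and sham 2, 0.20, -0.21 and -0.02 on the DNCB arrays, and 0.08, -0.20 and -0.30 on the DNCB+HY209 arrays. The groups overlapped, and the arrays with negative values below -0.1, namely DNCB 2, DNCB+HY209 2 and DNCB+HY209 3, were also those with the lowest spike-in signals. With spike-in signal added as a covariate, S phase minus mitosis was 0.05 for DNCB against sham and -0.05 for DNCB+HY209 against sham. Without sham 2 it was -0.08 for DNCB against sham and -0.18 for DNCB+HY209 against sham, without DNCB 2 it was -0.17 for DNCB against sham, and without sham 2 and DNCB 2, the arrays of highest and lowest spike-in signal, it was 0.03. For DNCB+HY209 against DNCB it ran from -0.20 to -0.0027 when single arrays were left out, at the ends without DNCB+HY209 1 and without DNCB 1. With the mean of all probe sets of a gene, S phase minus mitosis was -0.18 for DNCB against sham, -0.03 for DNCB+HY209 against DNCB and -0.17 for DNCB+HY209 against sham.

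Among the mitotic kinases and cyclins, Ccnb2, a B-type cyclin that activates Cdk1, gave 6.32 and 4.63 on the sham arrays, 5.66, 6.95 and 6.34 on the DNCB arrays, and 6.72, 6.99 and 7.02 on the DNCB+HY209 arrays. All 3 DNCB+HY209 arrays exceeded both sham arrays, and DNCB 1 lay below sham 1. Its limma differences were 0.85 ± 0.50 (adjusted p = 0.4) for DNCB against sham, 0.59 ± 0.45 (adjusted p = 0.9998) for DNCB+HY209 against DNCB and 1.44 ± 0.50 (adjusted p = 0.203) for DNCB+HY209 against sham. Cdk1, the kinase that drives mitotic entry, gave 7.75 and 6.07 on the sham arrays, 7.25, 7.79 and 7.57 on the DNCB arrays, and 7.39, 7.99 and 7.85 on the DNCB+HY209 arrays. Sham 1 lay inside the range of the treated arrays of Cdk1, and sham 2 lay far below it. Limma gave 0.63 ± 0.45 (adjusted p = 0.468), 0.21 ± 0.40 (adjusted p = 0.9998) and 0.84 ± 0.45 (adjusted p = 0.32) for Cdk1 in the same order.

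Plk1, a kinase of spindle assembly and mitotic exit, was the member in which the sham arrays were most alike among the kinases, with 5.55 and 5.45 on the sham arrays, 5.66, 6.55 and 6.04 on the DNCB arrays, and 6.19, 6.60 and 6.69 on the DNCB+HY209 arrays. All 6 DNCB-exposed arrays were above both sham arrays. The limma differences of Plk1 were 0.58 ± 0.28 (adjusted p = 0.332), 0.41 ± 0.25 (adjusted p = 0.9998) and 0.99 ± 0.28 (adjusted p = 0.158), in the order DNCB against sham, DNCB+HY209 against DNCB and DNCB+HY209 against sham. Aurka, the centrosomal Aurora kinase, gave 5.72 and 5.06 on the sham arrays, 5.79, 6.54 and 5.62 on the DNCB arrays, and 5.95, 6.27 and 6.33 on the DNCB+HY209 arrays. DNCB 2 was the highest array and DNCB 3 lay below sham 1. Differences from limma were 0.59 ± 0.32 (adjusted p = 0.366), 0.20 ± 0.29 (adjusted p = 0.9998) and 0.79 ± 0.32 (adjusted p = 0.236) in that order.

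The chromosomal passenger complex corrects the attachment of chromosomes to the spindle. Its subunit Birc5, survivin, had the largest DNCB against sham difference among mitosis genes, with signals of 6.81 and 5.72 on the sham arrays, 6.85, 7.83 and 7.28 on the DNCB arrays, and 7.30, 7.84 and 7.63 on the DNCB+HY209 arrays. Every DNCB-exposed array exceeded both sham arrays, although DNCB 1 did so only narrowly. By limma Birc5 differed by 1.05 ± 0.39 (adjusted p = 0.234) for DNCB against sham, 0.27 ± 0.35 (adjusted p = 0.9998) for DNCB+HY209 against DNCB and 1.32 ± 0.39 (adjusted p = 0.162) for DNCB+HY209 against sham. Cdca8, borealin, gave 7.07 and 6.58 on the sham arrays, 7.05, 7.73 and 7.71 on the DNCB arrays, and 7.64, 8.09 and 8.01 on the DNCB+HY209 arrays, and DNCB 1 fell just under sham 1. Limma differences of Cdca8 were 0.67 ± 0.29 (adjusted p = 0.297), 0.42 ± 0.26 (adjusted p = 0.9998) and 1.08 ± 0.29 (adjusted p = 0.143), the last with arrays that did not overlap. Aurkb, the kinase of the complex, was weaker at 4.45 and 4.25 on the sham arrays, 4.17, 5.11 and 4.70 on the DNCB arrays, and 4.65, 4.99 and 4.66 on the DNCB+HY209 arrays. Its DNCB arrays fell on both sides of the sham arrays, and limma gave 0.31 ± 0.27 (adjusted p = 0.552), 0.11 ± 0.25 (adjusted p = 0.9998) and 0.42 ± 0.27 (adjusted p = 0.398) in the same order.

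Activators and partners of the ubiquitin ligases that time mitosis had higher means in DNCB than in sham in 3 of 3 genes, with no call. Cdc20, which switches on the anaphase-promoting complex, gave 9.61 and 9.01 on the sham arrays, 9.28, 9.65 and 10.18 on the DNCB arrays, and 10.02, 10.28 and 9.93 on the DNCB+HY209 arrays. DNCB 1 was below sham 1, and the DNCB+HY209 arrays were above both sham arrays. Limma put its differences at 0.40 ± 0.31 (adjusted p = 0.502), 0.37 ± 0.28 (adjusted p = 0.9998) and 0.77 ± 0.31 (adjusted p = 0.233) for DNCB against sham, DNCB+HY209 against DNCB and DNCB+HY209 against sham. Ube2c, the ubiquitin-conjugating enzyme of that complex, gave 7.69 and 6.19 on the sham arrays, 7.04, 8.44 and 7.60 on the DNCB arrays, and 7.70, 8.08 and 8.25 on the DNCB+HY209 arrays. Sham 1 lay above DNCB 1 and DNCB 3, and DNCB 2 was the highest of all arrays. In the same order limma gave 0.75 ± 0.50 (adjusted p = 0.438), 0.32 ± 0.45 (adjusted p = 0.9998) and 1.07 ± 0.50 (adjusted p = 0.274). Cdca3, a trigger of mitotic entry, differed by 0.41, 0.35 and 0.76. Other probe sets of Cdca3 went as low as -0.30, -0.11 and -0.41 in the same order.

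At the centromere and spindle checkpoint, Cenpa, the histone H3 variant that marks centromeres, gave 6.79 and 5.39 on the sham arrays, 6.50, 7.50 and 7.02 on the DNCB arrays, and 6.89, 7.41 and 7.43 on the DNCB+HY209 arrays. Its DNCB arrays fell around sham 1, while the DNCB+HY209 arrays lay above both sham arrays. Limma differences of Cenpa were 0.92 ± 0.44 (adjusted p = 0.323) for DNCB against sham, 0.23 ± 0.39 (adjusted p = 0.9998) for DNCB+HY209 against DNCB and 1.15 ± 0.44 (adjusted p = 0.218) for DNCB+HY209 against sham. Bub1, a checkpoint kinase, gave 6.20 and 4.65 on the sham arrays, 5.17, 6.08 and 6.26 on the DNCB arrays, and 6.26, 6.46 and 5.95 on the DNCB+HY209 arrays, with sham 2 and DNCB 1 low and sham 1 within the range of the treated arrays. It differed by 0.41 ± 0.47 (adjusted p = 0.638), 0.39 ± 0.42 (adjusted p = 0.9998) and 0.80 ± 0.47 (adjusted p = 0.353) in limma's test. Mad2l1, the checkpoint protein MAD2, was at 6.87 and 5.79 on the sham arrays, 5.58, 6.64 and 6.45 on the DNCB arrays, and 6.32, 6.60 and 6.52 on the DNCB+HY209 arrays. Sham 1 was its highest array and DNCB 1 its lowest, and limma gave -0.11 ± 0.39 (adjusted p = 0.893), 0.26 ± 0.35 (adjusted p = 0.9998) and 0.15 ± 0.39 (adjusted p = 0.831) in the same order. The motor Cenpe and the kinases Bub1b and Ttk differed by 0.69, 0.46 and 0.51 between DNCB and sham. Another probe set of Ttk differed by -0.16 in that comparison. In the brightest probe sets of Cenpe and Bub1b all DNCB+HY209 arrays also exceeded all DNCB arrays. Other probe sets of Bub1b went as low as -0.23 for DNCB+HY209 against DNCB, on the other side of 0.

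Chromosome untangling, motors and cytokinesis took in 8 genes. Top2a, topoisomerase II alpha, gave 9.01 and 7.51 on the sham arrays, 8.24, 9.05 and 8.81 on the DNCB arrays, and 8.84, 9.13 and 8.97 on the DNCB+HY209 arrays, and sham 1 was within the range of the treated arrays. The differences by limma were 0.44 ± 0.42 (adjusted p = 0.582), 0.28 ± 0.38 (adjusted p = 0.9998) and 0.72 ± 0.42 (adjusted p = 0.354) for DNCB against sham, DNCB+HY209 against DNCB and DNCB+HY209 against sham. Other probe sets of Top2a went as low as -0.46, -0.05 and -0.13 in the same order. Kif20a, a kinesin of the midzone, gave 4.37 and 3.91 on the sham arrays, 4.17, 5.31 and 4.56 on the DNCB arrays, and 4.52, 4.95 and 5.15 on the DNCB+HY209 arrays, with DNCB 2 the highest. Limma gave 0.54 ± 0.34 (adjusted p = 0.423), 0.19 ± 0.31 (adjusted p = 0.9998) and 0.74 ± 0.34 (adjusted p = 0.275) for Kif20a in that order. Kif11, the kinesin that separates spindle poles, gave 5.08 and 4.52 on the sham arrays, 3.97, 5.47 and 5.05 on the DNCB arrays, and 5.06, 5.68 and 5.35 on the DNCB+HY209 arrays. DNCB 1 was the lowest array of Kif11, below both sham arrays. Among mitosis genes it had one of the 3 largest moderated t values for DNCB+HY209 against DNCB, at 0.53 ± 0.37 (adjusted p = 0.9998) by limma, with 0.03 ± 0.41 (adjusted p = 0.977) for DNCB against sham and 0.56 ± 0.41 (adjusted p = 0.443) for DNCB+HY209 against sham.

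Kif23, a centralspindlin motor of cytokinesis, had the lowest DNCB against sham difference among mitosis genes. Its signals were 7.17 and 6.29 on the sham arrays, 6.19, 6.45 and 6.60 on the DNCB arrays, and 6.88, 6.61 and 6.68 on the DNCB+HY209 arrays. Sham 1 was the highest of its arrays, and the DNCB+HY209 arrays lay above the DNCB arrays by a narrow margin. Its limma differences were -0.31 ± 0.28 (adjusted p = 0.56), 0.31 ± 0.25 (adjusted p = 0.9998) and -0.0048 ± 0.28 (adjusted p = 0.993), in the order DNCB against sham, DNCB+HY209 against DNCB and DNCB+HY209 against sham. The spindle and cytokinesis genes Tpx2, Prc1, Nusap1 and Ect2 differed by 0.54, 0.52, 0.33 and 0.20 between DNCB and sham, and by 0.93, 0.71, 0.77 and 0.53 between DNCB+HY209 and sham. Other probe sets of Tpx2 and Nusap1 went as low as -0.81 and -0.26 between DNCB and sham. Between DNCB+HY209 and sham they went as low as -0.87 and -0.35. No probe set of Prc1 or Ect2 lay below 0 in either comparison.

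Further genes of the pathway, none of them members, were read in the same way. Of 36 measured genes of the replication machinery outside the members, 0 passed in any comparison by limma. At an unadjusted p under 0.05 by limma, in either direction, were 3, 0 and 12 in DNCB against sham, DNCB+HY209 against DNCB and DNCB+HY209 against sham. Of all genes tested, 12.4%, 0.25% and 14.2% had such a p and were higher. The share with such a p and a lower mean was not counted, so these percentages are not like for like. The median differences of the 36 genes were 0.26, 0.24 and 0.52 in that order. Higher means were found in 27, 34 and 31 of 36, against 63.2%, 57% and 65.7% of all genes tested. The licensing factor Cdt1 gave 7.24 and 6.65 on the sham arrays, 7.58, 7.69 and 7.86 on the DNCB arrays, and 8.13, 8.04 and 8.04 on the DNCB+HY209 arrays, with DNCB+HY209 arrays all above DNCB arrays and DNCB arrays all above sham arrays. Limma gave Cdt1 0.77 ± 0.24 (adjusted p = 0.172) for DNCB against sham and 1.13 ± 0.24 (adjusted p = 0.0948) for DNCB+HY209 against sham. The chromatin assembly subunit Chaf1b differed by 0.83 ± 0.23 (adjusted p = 0.132) and 1.16 ± 0.23 (adjusted p = 0.0723), and Gins3 lay on the other side of 0 at -0.37 ± 0.17 (adjusted p = 0.308) and -0.30 ± 0.17 (adjusted p = 0.33), in the same limma comparisons.

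Of 47 other measured mitosis genes, 46 were tested and 0 passed in any comparison by limma. In either direction, 6, 1 and 17 had an unadjusted p under 0.05 by limma. Of all genes tested, 12.4%, 0.25% and 14.2% had such a p and were higher, and the share that were lower was not counted. Median differences were 0.28, 0.33 and 0.51. Higher means were found in 35, 45 and 41 of 47, against 63.2%, 57% and 65.7% of all genes tested. Tacc3, a spindle microtubule protein, was higher in DNCB than sham by 1.32 ± 0.42 (adjusted p = 0.175), and Zwilch, of the kinetochore, by 0.95 ± 0.30 (adjusted p = 0.175) in limma's test. Hmgb2, a chromatin protein of dividing cells, differed by -1.05 ± 0.38 (adjusted p = 0.227) and Kif15 by -0.64 ± 0.38 (adjusted p = 0.402), also by limma. Spc24, of the kinetochore, had the largest moderated t for HY209 against DNCB in this list, at 0.51 ± 0.22 (adjusted p = 0.9998) by limma.

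Among 18 genes of G1 entry and the E2F family, 1 passed in DNCB against sham by limma. E2f7, a repressor of E2F targets that is itself induced in S phase, gave 4.69 and 3.95 on the sham arrays, 6.08, 7.24 and 6.37 on the DNCB arrays, and 6.01, 6.85 and 6.59 on the DNCB+HY209 arrays. All 6 DNCB-exposed arrays lay above both sham arrays. E2f7 rose in DNCB against sham by 2.24 ± 0.40 (adjusted p = 0.0342), with 2.17 ± 0.40 (adjusted p = 0.06) for DNCB+HY209 against sham, both by limma. The call was lost when sham 1, sham 2, DNCB 1, DNCB 2 or DNCB+HY209 2 was left out, and without sham 2 and DNCB 2 together. It was also lost with the replicate number as a block, at 2.26 (adjusted p = 0.1 by limma), with spike-in signal as a covariate, at 1.501 (adjusted p = 0.0896), and with the hair follicle level as a covariate, at 2.17 (adjusted p = 0.125). Over all alternatives the adjusted p ran from 0.0169 to 0.281, while the difference ran from 1.501 to 2.61. Between DNCB+HY209 and DNCB, E2f7 differed by -0.08. Skp2, the F-box protein that degrades Cdk inhibitors, had the highest moderated t for HY209 against DNCB in the list, at 0.52 ± 0.22 (adjusted p = 0.9998) by limma. Of 17 tested inhibitors of the cycle, 0 passed in any comparison by limma, with 1, 0 and 0 at an unadjusted p under 0.05 in either direction. The share of all genes tested with such a p in either direction was not counted. Median differences of the inhibitors were 0.02, 0.06 and 0.05.

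The cell cycle lists varied across arrays alongside technical and tissue measures, and the part of these in the differences was not tested beyond the covariate fits given here. Median deviations from each gene's mean over all arrays were -0.02 and -0.92 for mitosis genes on sham 1 and sham 2, -0.45, 0.38 and 0.09 on the DNCB arrays, and 0.12, 0.52 and 0.36 on the DNCB+HY209 arrays. For S phase genes they were 0.04 and -0.62 on the sham arrays, -0.25, 0.17 and 0.07 on the DNCB arrays, and 0.20, 0.31 and 0.06 on the DNCB+HY209 arrays. The array with the lowest medians, sham 2, had the highest spike-in signal, and the 3 arrays with the highest mitosis medians had the 3 lowest spike-in signals. With spike-in signal added as a covariate, the median member difference was 0.08 for DNCB against sham, 0.26 for DNCB+HY209 against DNCB and 0.29 for DNCB+HY209 against sham.

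Hair follicle matrix and shaft markers, of which 20 of 22 were measured, had mean log2 signals of 9.19 and 6.58 on sham 1 and sham 2, 5.27, 5.51 and 7.45 on the DNCB arrays, and 8.42, 6.14 and 6.24 on the DNCB+HY209 arrays. They were higher on sham 1 than on sham 2, as were 43 of 45 tested members. Within the DNCB+HY209 group, arrays 2 and 3 had the higher mitosis medians and the lower hair follicle signals. A part of the hair follicle in the member differences was not tested beyond the covariate fit. None of the 20 passed in any comparison by limma, with 5, 0 and 1 at an unadjusted p under 0.05 in either direction. The share of all genes tested with such a p in either direction was not counted. Their mean was higher with HY209 than in DNCB in all 20, against 57% of all genes tested, with a median difference of 0.89. With the hair follicle level as a covariate, the median member difference was 0.58 for DNCB against sham and 0.18 for DNCB+HY209 against DNCB. For DNCB+HY209 against sham it was 0.785.

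Other cell types of inflamed skin were read from fixed marker lists. T cell markers had mean signals of 3.69 to 3.87 on all arrays, and 5 of 9 measured genes lay at or below the array median on every array. Macrophage and monocyte markers ran from 5.26 to 5.49 in sham, 5.66 to 6.75 in DNCB and 5.45 to 6.15 in DNCB+HY209, and 2 of 13 rose in DNCB against sham by limma. Endothelial markers ran from 4.55 to 4.75, 5.63 to 6.43 and 5.14 to 5.65 in the same groups, with 5 of 10 rising in DNCB against sham. Both lists had lower means with HY209 than in DNCB in every measured gene, 13 of 13 and 10 of 10. The cell cycle members had higher means in 47 of 47, and 57% of all genes tested did so. Fibroblast markers had lower means with HY209 in 10 of 10, with a median difference of -0.99, and activated keratinocyte markers in 8 of 8, with a median of -0.53. Melanocyte markers had higher means in 8 of 8, with a median of 1.11, and basal keratinocyte markers in 3 of 10, with a median of -0.03. None of the genes of these 6 lists passed between DNCB+HY209 and DNCB by limma. At an unadjusted p under 0.05 by limma were 2 macrophage and monocyte, 4 endothelial, 4 fibroblast and 0 other genes. The share of all genes tested with such a p and a lower mean was not counted.

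**Figure D4:**
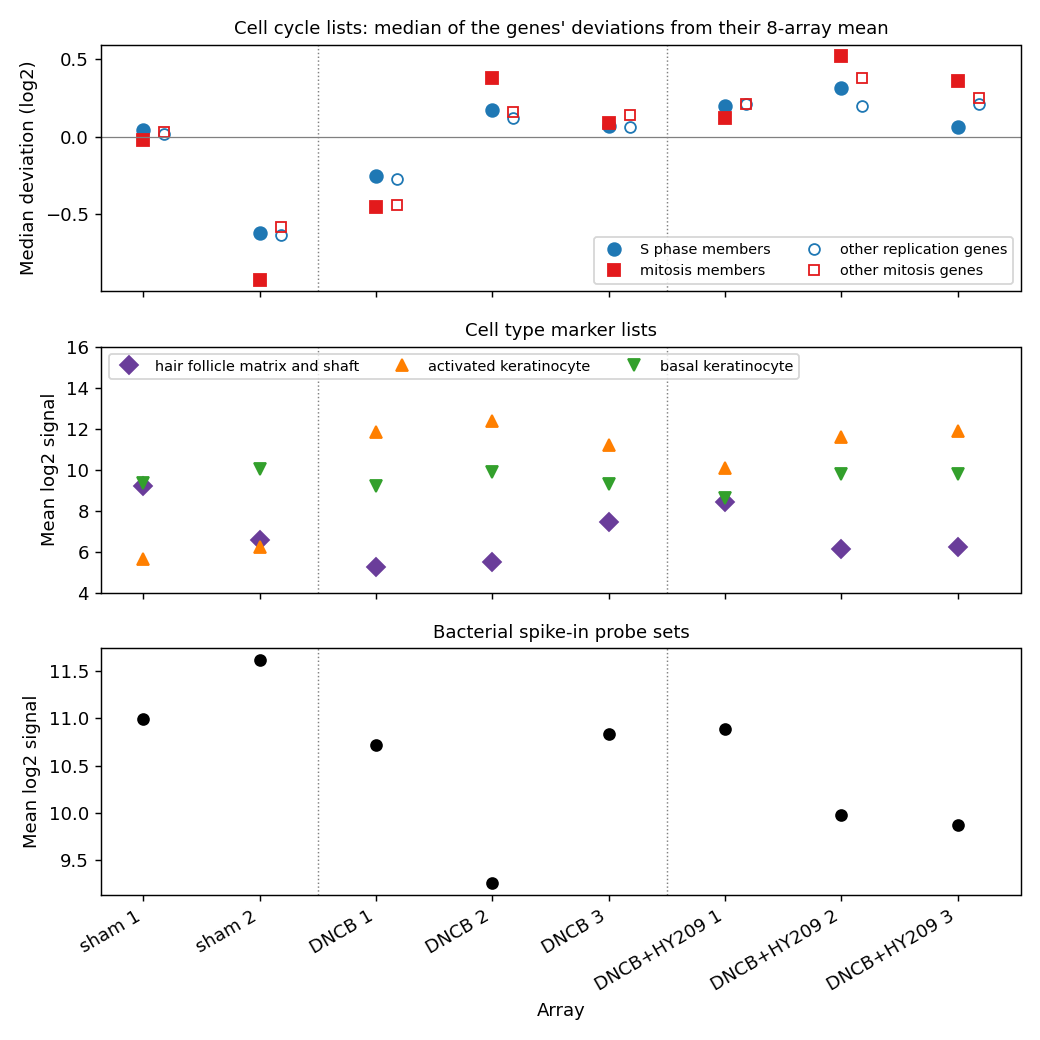
Median deviation of the S phase, mitosis, other replication and other mitosis genes (top, log2), mean log2 signal of 3 marker lists (middle) and the bacterial spike-in mean in log2 units (bottom) on each of the 8 arrays. All 4 cell cycle lists are lowest on sham 2, where the spike-in signal is highest at 11.62, and activated keratinocyte markers separate both sham arrays from the other 6.

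Several members had more than 1 probe set, and these did not always point the same way. Of 33 such members, the probe sets differed in sign in 17 for DNCB against sham, 10 for DNCB+HY209 against DNCB and 12 for DNCB+HY209 against sham. The values above are those of the brightest probe set. With the mean of all probe sets of a gene, the median member differences were 0.25, 0.22 and 0.53 in the same order.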

How the data were processed

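Total RNA from frozen skin was amplified from its 3′ end, labelled with biotin and hybridised to Affymetrix mouse arrays, 1 per sample (per the labels' protocols). The array named there is the 430A 2.0, but 45101 probe sets were in the table. The log2 signals per probe set were used as deposited by the authors, and their range showed the scale. Affymetrix Expression Console and MAS5 are named in the submitters' processing notes, but how arrays were normalized against each other is not given there. Detection calls were not analysed here.

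Of the probe sets, 64 were controls, 34945 had 1 gene symbol, 932 had several and 9160 were not listed in the platform annotation used. A gene was its probe set with the highest mean and was tested if above the array median on at least 2 of 8 arrays. Groups were compared with limma 3.58.1 (R 4.3.3; trended eBayes after lmFit), fitting the 8 arrays together, two-sided, with Benjamini-Hochberg adjustment and a threshold of 0.05. SE is the moderated standard error. The fit was tested on simulated data. Descriptions and promoter searches used Python 3.11.15.

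Values on every array are given for a fixed set of members, for all 5 members of both phases, and for the 3 highest and 2 lowest S phase and mitosis members by moderated t in each comparison. Of each other cell cycle list the genes that passed are named, or else examples from the highest and lowest by moderated t. The members, the lists and the alternatives were chosen with earlier results of these data known. Alternatives were other normalizations, filters, probe set rules and variance models, a replicate block, leaving out arrays, and covariates for spike-in, Gapdh and hair follicle levels.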

Additional observations from a re-analysis of the deposited data

How the results depend on the processing

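With 2 sham arrays, precision was limited by the number of arrays. The count of members that passed was 0 in every comparison and alternative, except 6 for DNCB+HY209 against sham with array weights, whose fit did not reach its convergence tolerance. When arrays were left out in turn, the median member difference ran from -0.0065 to 0.81 for DNCB against sham, from 0.11 to 0.45 for DNCB+HY209 against DNCB and from 0.21 to 1.07 for DNCB+HY209 against sham. S phase minus mitosis ran from -0.43 to -0.0785, from -0.20 to -0.0027 and from -0.45 to -0.18 in the same order. With spike-in signal as a covariate, the median was 0.29 for DNCB+HY209 against sham, and S phase minus mitosis was 0.0454 for DNCB against sham and -0.0542 for DNCB+HY209 against sham. Without the arrays of highest and lowest spike-in level, sham 2 and DNCB 2, the medians were -0.0898 for DNCB against sham and 0.21 for DNCB+HY209 against sham, and S phase minus mitosis was 0.0283 for DNCB against sham. Quantile normalization took the median over all genes tested from 0.15 to -0.0049 for DNCB against sham and from 0.20 to 0.01 for DNCB+HY209 against sham; the member medians were then 0.19 and 0.50. The causes were not tested. Single members changed sign in 107 of 1031 values for DNCB against sham, 18 for DNCB+HY209 against DNCB and 47 for DNCB+HY209 against sham, over 23 alternatives. The labels name no pairing, so the replicate numbers were not taken as a pairing. Deviations from the group means correlated at -0.60 to 0.28 between same-numbered arrays. With so few arrays the deviations within a group are tied together, so these correlations cannot show or exclude a pairing. With the replicate number as a block, 0 members passed, the medians were 0.38, 0.28 and 0.69, S phase minus mitosis was -0.27, -0.12 and -0.29, and the genes that passed numbered 35, 0 and 12 against 224, 0 and 50 without it. Leaving out an array took the genes that passed in DNCB against sham from 224 to between 15 and 349.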
